A study of Mus musculus with 10 samples.

Results

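Of the 19178 genes in the deposited count table, 10 were examined as genes of mature migratory dendritic cells, taken by symbol: Fscn1, Marcks, Marcksl1, Birc3, Tmem123, Il4i1, Cd200, Socs2, Cacnb3 and Anxa3. All 10 were in the count table, passed the filter on low counts and were also in the deposited FPKM table (fragments scaled to transcript length and library size). The 10 libraries hold poly(A) RNA of mouse dendritic cells, 5 of them Ptbp1-deficient and 5 wild type (WT), at an age of 8 to 10 weeks. The labels used here name no tissue of origin, sex, Ptbp1 allele, Cre driver or stimulus, nor do they tie libraries to individual mice, so the p-values reflect the spread among these 10 libraries, which may be technical. Ptbp1 encodes polypyrimidine tract-binding protein 1, which binds RNA and controls splicing.

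Dendritic cells sample antigen in tissue and present it to T cells. When they mature, they switch on the chemokine receptor CCR7, rebuild their actin skeleton and travel to the T cell zones of lymph nodes, and the same programme turns on genes for survival and for restraint of T cells. NF-kappa B signalling, including its noncanonical arm through RelB, is a known driver of this state. In bulk RNA, fewer mature cells in a library and less RNA per mature cell cannot be told apart.

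By counts, 8 of the 10 genes fell in the Ptbp1-deficient libraries and none rose (edgeR's quasi-likelihood test, Benjamini-Hochberg adjusted p under 0.05 over all genes tested). The background was high: 22.6% of 18248 genes tested fell by the same rule and 21.7% rose. Among genes with a mean of at least 10 CPM (counts scaled to library size), 24.7% of 9117 fell. The median log2 fold change of the 10 genes was -0.45, beside -0.03 over all genes tested. No member fell by more than 1 on the log2 scale. By FPKM, 9 of the 10 fell, by limma on log2(FPKM + 1), beside 27.1% of 11968 genes. The genes were proposed with results of these data in view, so these counts describe them and do not set them apart.

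Gene counts per library were 61759378 to 92697815 in the deficient group and 50516163 to 66153758 in WT. Ptbp1 itself stood at 74.4 ± 1.08 CPM (SD, n = 5) in the deficient libraries and 294 ± 21.1 CPM (SD, n = 5) in WT, a log2 fold change of -1.98 (edgeR adjusted p = 2.13e-10), with no overlap. In FPKM it stood at 28.7 ± 6.02 and 65.3 ± 2.81 (SD, n = 5 each), a log2(FPKM + 1) difference of -1.18. All 7 dendritic cell markers were measured, and they summed to 32263 to 35105 CPM in deficient libraries and 27914 to 34504 CPM in WT. Most of that sum came from Cd74, H2-Ab1 and H2-Eb1, which did not pass. Of the 7, 2 rose, Itgax (log2 fold change 0.51) and Zbtb46 (0.25), and 1 fell, Dpp4 (-0.32). Libraries also differed in markers of other cells. The summed level of 15 macrophage markers was 410 to 427 CPM in deficient replicates 1 and 2, 987 to 1157 CPM in deficient replicates 3 to 5, 1369 to 1426 CPM in WT replicates 2 to 4, and 2772 and 4106 CPM in WT replicates 1 and 5, and 9 of the 15 fell. Of 8 markers of cDC1, the cross-presenting subset, 7 rose (2786 to 3919 CPM against 1365 to 1785 CPM), and of 8 markers of cDC2, the other main subset, 7 fell (858 to 1089 CPM against 1360 to 1459 CPM). Markers of other cells also moved without overlap between the groups: NK cell markers summed to 172 to 254 CPM in deficient libraries and 31.8 to 85.6 CPM in WT (5 of 9 rose), monocyte markers to 170.1 to 272 and 413 to 1032 CPM (3 of 5 fell), and Langerhans cell markers to 7.14 to 12.7 and 20.3 to 77.0 CPM (2 of 3 fell). T cell markers did not overlap either, at 278 to 317 CPM in deficient libraries and 331 to 427 CPM in WT (1 of 9 fell). That sum was mostly Cd4 (230 to 270 and 285 to 396 CPM), the 1 that fell. The NK cell sum was mostly Klrk1 and Gzma. The monocyte sum was mostly Csf1r (103 to 187 CPM in deficient libraries and 338 to 811 CPM in WT). The monocyte marker Ly6c2 did not pass (edgeR adjusted p = 0.242). It stood at 27.6 to 40.3 CPM in deficient libraries, 6.20 to 11.7 CPM in WT replicates 1 to 4 and 50.4 CPM in WT replicate 5. In WT the Langerhans cell sum was mostly Cd207 (11.5 to 63.4 CPM), and Epcam did not pass (edgeR adjusted p = 0.102). WT replicate 5 was also the highest library for B cell markers (1828 CPM, against 351 to 651 CPM in the other WT libraries) and neutrophil markers (865 CPM, against 124 to 173 CPM). The part of these cell type differences in the results was not tested, apart from the fits without these libraries and with a macrophage marker score given below. The macrophage sums did not overlap between the groups, so the fit with that score cannot fully separate it from genotype. Standard errors can also be larger in that fit (for Fscn1 0.108, against 0.078 without the score). A call lost there can therefore not be assigned to macrophage content.

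**Figure D1:**
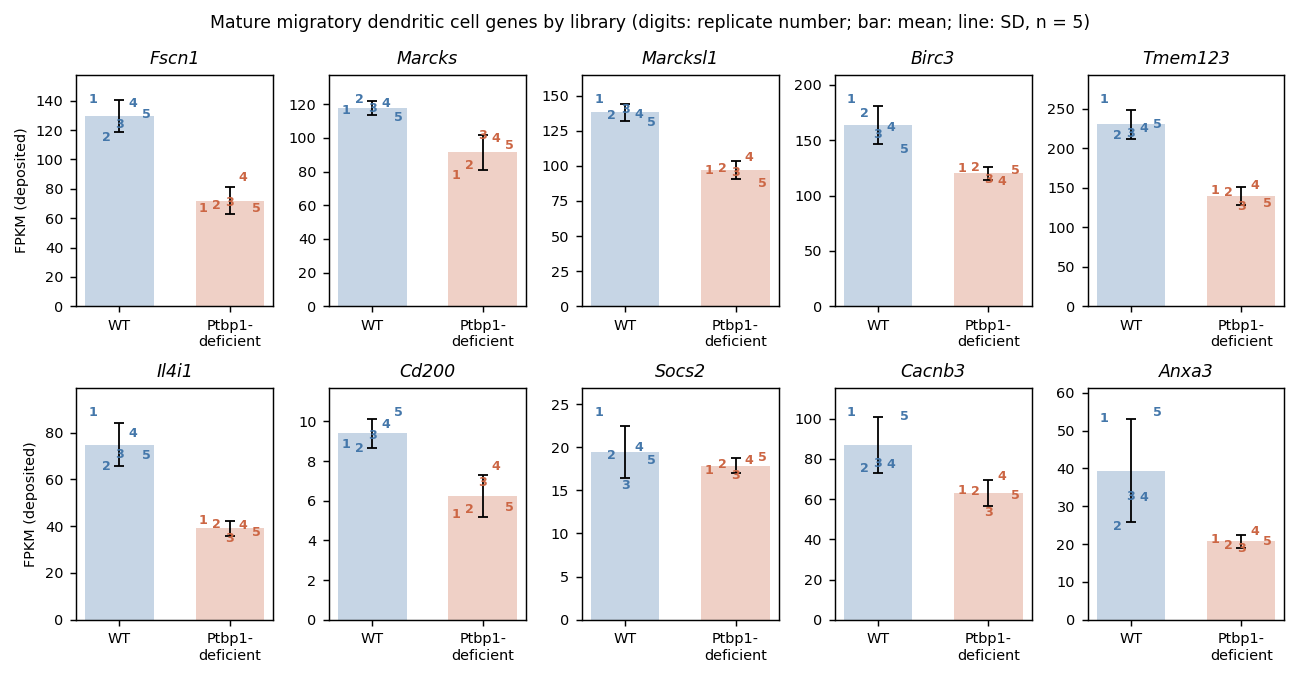
FPKM of the 10 genes in each library, with the replicate number as the point and the 2 groups side by side. The groups do not overlap for 9 of the 10 genes, and Socs2 is the exception. Over all 11968 genes in FPKM, 19.1% had all 5 deficient libraries below all 5 WT libraries.

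Promoter letters are shown for Fscn1, Tmem123 and Birc3, which differ in what stands before their start. These genes and Marcksl1 kept their lower call in every fit of the counts that was run. Each line gives the 120 bases before the annotated start on GRCm38.p6, read 5′ to 3′ on the gene's strand. The start is the more upstream of those in GENCODE M21 and RefSeq. Capitals mark GGGCGG on either strand, TGACGTCA and TATAAA. The windows are chr5:142960223-142960342 on the plus strand for Fscn1, chr9:7763921-7764040 on the plus strand for Tmem123 and chr9:7873206-7873325 on the minus strand for Birc3.
Fscn1: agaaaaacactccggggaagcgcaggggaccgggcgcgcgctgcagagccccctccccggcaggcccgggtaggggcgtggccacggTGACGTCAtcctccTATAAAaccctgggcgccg
Tmem123: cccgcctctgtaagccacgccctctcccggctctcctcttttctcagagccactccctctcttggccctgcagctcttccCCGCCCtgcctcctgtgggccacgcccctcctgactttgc
Birc3: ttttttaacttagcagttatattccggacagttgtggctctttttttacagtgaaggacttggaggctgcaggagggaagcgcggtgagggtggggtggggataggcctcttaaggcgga
The Fscn1 window holds TGACGTCA, the palindrome known as the cAMP response element, followed by TATAAA. In the 250 bases before the start, searched on both strands in 9 windows of 7 members, TGACGTCA was found in Fscn1 alone, and in 1.55% of 32851 windows of that length. TATAAA was likewise found in Fscn1 alone, and in 12.4% of windows. GGGCGG was found for 4 members, Cacnb3, Cd200, Il4i1 and Tmem123, and in 32.7% of windows. Neither the kappa B consensus nor the pattern GAAA, any 2 bases, GAAA had a match in any member window (7.25% and 2.98% of all windows), which says only that these letters are not in these bases.

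Among the 3 members that act on actin, Fscn1, Marcks and Marcksl1, the log2 fold change was furthest from 0 for Fscn1. Fscn1 (ENSMUSG00000029581, chromosome 5, 142960343 to 142973185, plus strand, GRCm38) encodes fascin, which bundles actin filaments into the long dendrites of mature cells. It stood at 195, 187, 194, 241 and 179 CPM in deficient replicates 1 to 5, and at 341, 301, 329, 368 and 342 CPM in WT replicates 1 to 5. Every deficient library was below every WT library, with deficient replicate 4 the highest of its group. The means were 199 ± 24.4 and 336 ± 24.3 CPM (SD, n = 5 each), a log2 fold change of -0.75 (SE 0.078, edgeR adjusted p = 8.65e-06). In FPKM they were 72.0 ± 9.10 and 130 ± 10.8 (limma adjusted p = 2.97e-05).

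Marcks and Marcksl1 encode related membrane proteins that bind actin and release it when phosphorylated by protein kinase C. Marcksl1 stood at 173, 176, 176, 194 and 158 CPM in deficient replicates 1 to 5 and at 239.9, 233, 245, 241 and 231 CPM in WT replicates 1 to 5. The groups did not overlap, with means of 175 ± 12.8 and 238 ± 5.91 CPM (SD, n = 5 each). Its log2 fold change was -0.44 (SE 0.051, edgeR adjusted p = 1.88e-05).

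Marcks stood at 351, 379, 471, 459 and 436 CPM in deficient replicates 1 to 5 and at 478, 535, 522, 535 and 494 CPM in WT replicates 1 to 5. Deficient replicates 1 and 2, the libraries lowest in macrophage markers, were also lowest in Marcks, and the groups were separated by the gap from 471 to 478 CPM. The log2 fold change was -0.29 (SE 0.078, edgeR adjusted p = 0.00836). Without deficient replicates 1 and 2 it was -0.17 (edgeR adjusted p = 0.0242), and once the macrophage marker score was added to the fit it was also -0.17 (edgeR adjusted p = 0.198).

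Tmem123 and Birc3, both linked to cell death, lie near each other on chromosome 9. Tmem123 (chromosome 9, 7764041 to 7794333, plus strand) encodes porimin, a mucin-like membrane protein linked to oncotic cell death. It stood at 461, 449, 400.0, 469.95 and 404 CPM in deficient replicates 1 to 5 and at 722, 628, 657, 670.3 and 703 CPM in WT replicates 1 to 5. The gap between the groups was wide, and the log2 fold change was -0.63 (SE 0.060, edgeR adjusted p = 4.17e-06). WT replicates 1 and 5, the libraries highest in macrophage markers, were also highest in Tmem123. With the macrophage score the log2 fold change was -0.63 (edgeR adjusted p = 1.12e-04).

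Birc3 (chromosome 9, 7848699 to 7873186, minus strand) encodes cIAP2, a ubiquitin ligase that blocks cell death and restrains noncanonical NF-kappa B signalling. It stood at 289, 293, 267, 286 and 274 CPM in deficient replicates 1 to 5 and at 366, 378, 359, 368 and 313 CPM in WT replicates 1 to 5. The groups did not overlap, with WT replicate 5 the lowest of its group. The log2 fold change was -0.34 (SE 0.054, edgeR adjusted p = 2.35e-04). Birc2, which encodes cIAP1 and lies in the 54365 bp between Tmem123 and Birc3, also fell, from 160 to 133 CPM (log2 fold change -0.26).

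Il4i1, Cd200 and Socs2 act on immune responses. Il4i1 (chromosome 7, 44816387 to 44840809, plus strand) encodes a secreted amino acid oxidase that restrains T cells. Its row of the count table held 10 to 38 counts per library. Of its 4080 exonic bases, 3520 (86.3%) also belong to other genes, 3423 of them to Tbc1d17 on the opposite strand. The part of this overlap in the low counts was not tested. The count test gave a log2 fold change of -0.45 (SE 0.39, edgeR adjusted p = 0.383), and -0.10 without WT replicate 1 (edgeR adjusted p = 0.854).

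In FPKM Il4i1 stood at 42.4, 40.7, 34.8, 40.3 and 37.1 in deficient replicates 1 to 5 and at 88.6, 65.6, 70.8, 79.6 and 70.2 in WT replicates 1 to 5. The groups did not overlap. The means were 39.0 ± 3.06 and 75.0 ± 9.14 FPKM (SD, n = 5 each), and the log2(FPKM + 1) difference was -0.92 (SE 0.086, limma adjusted p = 1.53e-05), the largest of the 10 genes on that scale. Tbc1d17 fell as well, from 25.8 to 14.6 FPKM, and as no source used here states whether the counting used strand, the reads of these genes cannot be told apart.

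Cd200 encodes a membrane glycoprotein that quiets myeloid cells through its receptor. It stood at 10.4, 9.76, 12.2, 14.0 and 10.0 CPM in deficient replicates 1 to 5 and at 14.4, 13.7, 14.5, 15.2 and 19.0 CPM in WT replicates 1 to 5. Deficient replicate 4 was above WT replicate 2, so the groups overlapped in CPM, while in FPKM they did not (6.24 ± 1.05 and 9.41 ± 0.739, SD, n = 5 each). The log2 fold change was -0.45 (SE 0.12, edgeR adjusted p = 0.00711), and -0.17 with the macrophage score (edgeR adjusted p = 0.319). In FPKM with that score it passed, at -0.34 (limma adjusted p = 0.0332).

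Socs2, a feedback inhibitor of cytokine and growth hormone receptors, did not pass. It stood at 37.5, 38.2, 36.8, 44.2 and 40.8 CPM in deficient replicates 1 to 5 and at 45.9, 37.5, 38.7, 40.6 and 37.7 CPM in WT replicates 1 to 5. The libraries were interleaved. The log2 fold change was -0.02, with a 95% interval of -0.17 to 0.12 (edgeR adjusted p = 0.829).

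Cacnb3 and Anxa3 make up the calcium-related pair. Cacnb3 encodes a beta subunit of voltage-gated calcium channels, and stood at 144, 146, 127, 166 and 143 CPM in deficient replicates 1 to 5 and at 216, 174, 179, 184 and 237 CPM in WT replicates 1 to 5. WT replicates 1 and 5, the libraries highest in macrophage markers, were also highest in Cacnb3, and the groups did not overlap. The log2 fold change was -0.45 (SE 0.094, edgeR adjusted p = 0.0023), and -0.28 with the macrophage score (edgeR adjusted p = 0.1).

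Anxa3 encodes annexin A3, a calcium-dependent phospholipid-binding protein. It stood at 38.6, 38.3, 32.6, 41.7 and 36.6 CPM in deficient replicates 1 to 5 and at 85.2, 45.0, 52.5, 50.9 and 87.8 CPM in WT replicates 1 to 5. The same pair of WT libraries stood far above the other WT libraries, and all 5 WT libraries were above all deficient ones. The log2 fold change was -0.78 (SE 0.20, edgeR adjusted p = 0.0118). Without WT replicates 1 and 5 it was -0.40 (edgeR adjusted p = 7.31e-04), and with the macrophage score -0.44 (edgeR adjusted p = 0.271).

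**Figure D2:**
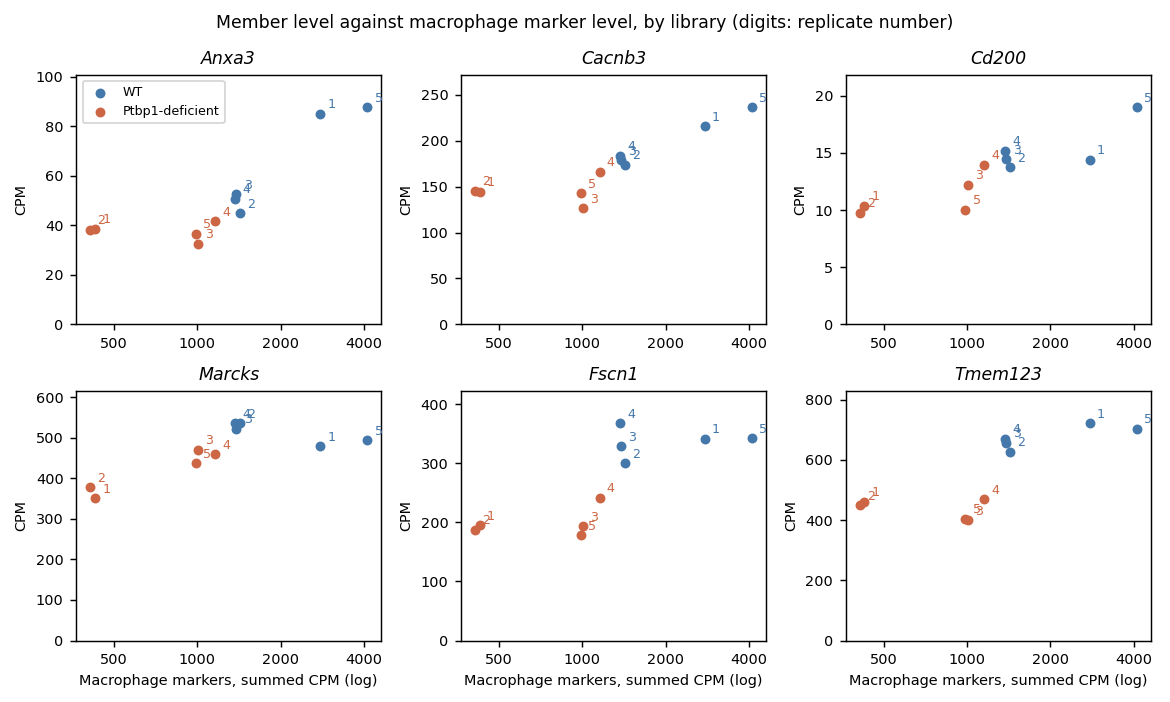
CPM of 6 of the genes against the summed CPM of 15 macrophage markers (log x axis), 1 point per library. WT replicates 1 and 5, at 2772 and 4106 CPM of macrophage markers, are the highest libraries for Anxa3, Cacnb3 and Tmem123. Deficient replicates 1 and 2, the lowest in macrophage markers, are not the lowest libraries for these genes.

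Across all members, 7 of 10 had every deficient library below every WT library in CPM (16.2% of all genes tested) and 9 of 10 in FPKM (19.1%). With the macrophage score as a covariate 4 of the 10 were lower at an adjusted p under 0.05, Birc3, Fscn1, Marcksl1 and Tmem123 (18.2% of all genes tested). In FPKM with that score 6 were lower, these 4 with Cd200 and Il4i1 (23.3%). Without deficient replicates 1 and 2, 6 were lower (20.4%), and Anxa3 and Cd200 had edgeR adjusted p of 0.0577 and 0.0554. Without WT replicates 1 and 5, 8 were lower (22.1%).

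**Figure D3:**
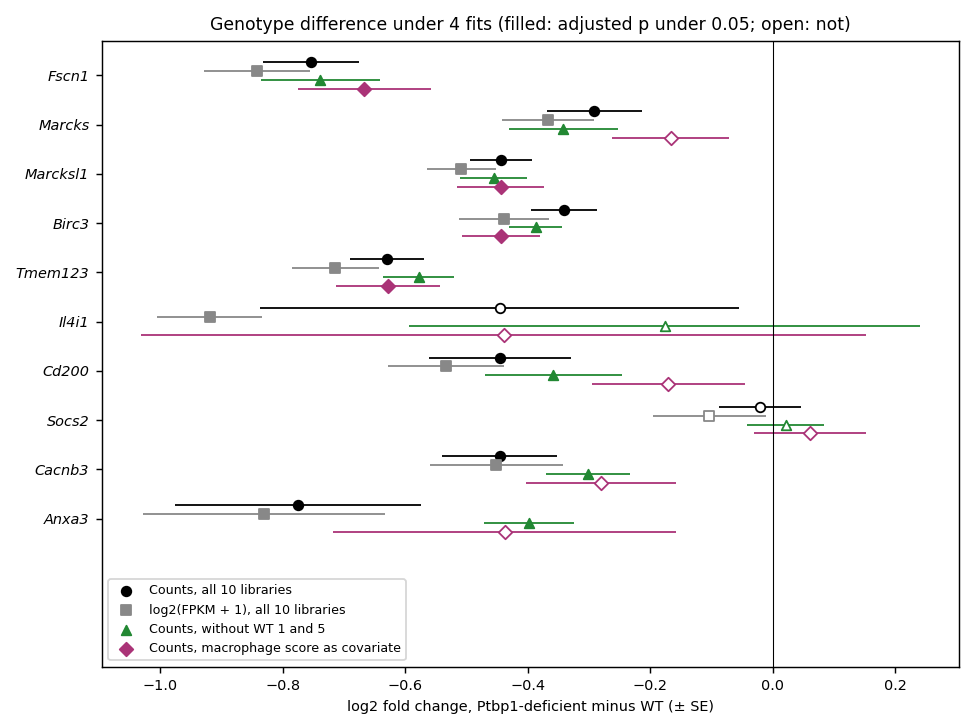
Log2 fold change of each gene, deficient against WT, with its standard error, under 4 fits: counts with all libraries, log2(FPKM + 1), counts without WT replicates 1 and 5, and counts with the macrophage score, filled where the adjusted p is under 0.05. All genes but Socs2 lie below 0 in each of the 4, and Fscn1, Tmem123, Marcksl1 and Birc3 are filled in each.

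By level per length, Tmem123 was highest in both groups, at 230.3 FPKM in WT and 140.0 FPKM in deficient libraries. Birc3 followed (164 and 120.04 FPKM), and Cd200 was lowest (9.41 and 6.24 FPKM). Fscn1 was the fourth in WT at 130 FPKM, in a run with Birc3, Marcksl1 and Marcks in which neighbours overlapped, and the fifth in deficient libraries at 72.0 FPKM, where it overlapped with Marcks and Cacnb3.

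The genes most like Fscn1 were sought by the root mean square difference of centred log2 CPM over the 10 libraries, among 10468 genes with a mean of at least 5 CPM. Arl5c was nearest (0.094), followed by Adora2a and Map3k20 (both 0.11). Nearest to the mean of the 10 members were Nudt17 (0.062), Nr2c1 (0.077) and 5930403N24Rik (0.079). Among members the nearest pair was Marcksl1 and Birc3 (0.10), then Fscn1 and Tmem123 (0.12).

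Other genes reported in mature migratory dendritic cells moved in both directions. Over all genes tested, 22.6% fell and 21.7% rose by the same rule, and the counts in this and the following lists stand beside that background. Of 24, 16 fell and 4 rose, with a median log2 fold change of -0.41. Arl5c fell from 114 to 67.5 CPM (log2 fold change -0.76), Apol7c from 378 to 239.6 CPM (-0.66) and Insm1, a transcription factor, from 19.9 to 7.15 CPM (-1.48). Serpinb6b, a protease inhibitor named after its values were seen, rose from 74.9 to 251 CPM (1.75). Of 11 maturation genes 3 fell and 1 rose. Relb, the noncanonical NF-kappa B subunit, fell from 467 to 315 CPM (-0.57), Icam1, an adhesion molecule, fell by 0.16 on the log2 scale, and Cd86, a costimulatory ligand, rose from 147 to 218 CPM (0.57). Without WT replicates 1 and 5, 7 fell and 2 rose.

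Ccr7, the chemokine receptor that guides migration, named after its values were seen, stood at 187 ± 18.04 CPM in deficient libraries and 239 ± 54.5 CPM in WT (SD, n = 5 each), a log2 fold change of -0.36 (edgeR adjusted p = 0.0717). It passed in 9 of 26 alternative fits, with an adjusted p of 0.0216 with DESeq2, 0.0285 with limma on log2(FPKM + 1), 0.0071 in edgeR without WT replicate 1 and 0.0014 in edgeR without WT replicates 1 and 5. Among those it did not pass were the replicate block (edgeR adjusted p = 0.111), the macrophage score (log2 fold change -0.20, edgeR adjusted p = 0.513) and the fit without WT replicate 5 (log2 fold change -0.22, edgeR adjusted p = 0.101). Of 11 migration and cytoskeleton genes 3 rose and 2 fell. In FPKM 2 rose and 4 fell, and 5 rose and 3 fell both with the macrophage score and without deficient replicates 1 and 2. Cxcl16, a chemokine, fell from 94.9 to 57.1 CPM (-0.73), while Actr3 and Arpc1b, subunits of the actin-branching Arp2/3 complex, rose by log2 fold changes of 0.41 and 0.34. Actr3 did not pass in FPKM (log2(FPKM + 1) difference 0.25, limma adjusted p = 0.105). Of 8 regulatory genes 2 rose and 2 fell: Pdcd1lg2, a PD-1 ligand (-0.47), and Fas, a death receptor (-0.45), fell, and Socs1 (1.10) was among those that rose. Of 7 type 2 response genes 3 fell and 1 rose, with Stat6 at -0.32 and Il4ra, a subunit of the receptor upstream of it, at 0.72.

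**Figure D4:**
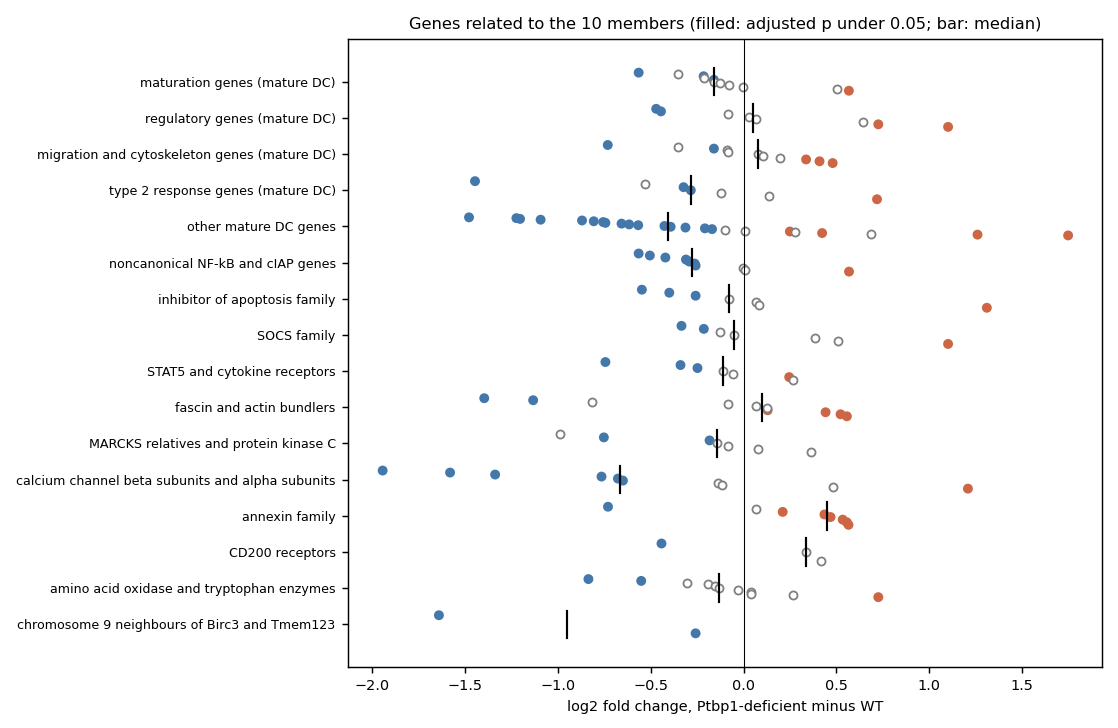
Log2 fold change, deficient against WT, of the genes in each related list, 1 point per gene, filled where the adjusted p is under 0.05, with a bar at the list's median. The annexins lie mostly above 0, and the noncanonical NF-kappa B and calcium channel genes mostly below 0.

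Relatives of the members did not all move with them. Of 10 noncanonical NF-kappa B genes 7 fell and 1 rose: Traf3 (-0.51) and Nfkb2 (-0.42) fell, and Chuk, which encodes the kinase IKK alpha, rose (0.57). Of 7 other inhibitor of apoptosis genes 3 fell and 1 rose, Birc5 (1.31), which encodes survivin of the mitotic machinery. Of 8 annexins other than Anxa3, 6 rose and 1 fell, with Anxa1 at 0.53, Anxa7 at 0.56 and Anxa11 at 0.47. Of 10 calcium channel subunits other than Cacnb3, 6 fell and 1 rose. Cacnb1 (19.6 to 12.3 CPM, -0.68) and Cacnb2 (4.14 to 1.38 CPM, -1.58) fell and Cacnb4 (4.02 to 9.29 CPM, 1.21) rose. Cacna1e, the highest of the list and named after its values were seen, did not pass (edgeR adjusted p = 0.35). It stood at 178 CPM in deficient libraries and 196 CPM in WT. Only 2 of the 10 were in the FPKM table, where 1 fell and 0 rose.

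Around Socs2, 2 of 7 relatives fell, Socs4 (-0.21) and Socs5 (-0.34), and Socs1 alone rose. Socs4 did not pass in edgeR without deficient replicate 3, WT replicate 1 or WT replicate 4 (adjusted p = 0.0704, 0.083 and 0.0624). Of 7 measured inputs to Socs2 3 fell and 1 rose, with Stat5b at -0.34 and Il7r at -0.74. Of 10 actin bundlers 4 rose and 2 fell, Pls3 (-1.13) and Espn (-1.40), which were low in WT (6.76 and 3.95 CPM). Those that rose included Fmnl2 (from 127 to 186 CPM, 0.56) and Lcp1 (from 2109 to 2863 CPM, 0.44). Lcp1 was the highest of the list and was named after its values were seen. In FPKM 5 of the 10 were measured, of which 3 rose and 0 fell. Of 7 relatives and kinases of MARCKS 2 fell, Prkce (-0.75) and Prkcd (-0.18). Without WT replicates 1 and 5, 4 of those 7 fell and 1 rose, and 3 SOCS relatives rose in place of 1. Cd200r1, the receptor of CD200, fell from 22.6 to 16.7 CPM (-0.44), alone among 3 measured receptors. The others, Cd200r3 and Cd200r4, were low (0.70 and 1.57 CPM in WT). Without WT replicates 1 and 5, 2 of the 3 receptors rose and 1 fell. Of 11 amino acid oxidase and tryptophan genes 2 fell, Ahrr (-0.84) and Dao (-0.55), and Ido1 rose (0.73). Ido1 and Dao were low, at 0.90 and 4.12 CPM in WT and 1.49 and 2.81 CPM in deficient libraries. In FPKM 7 of the 11 were measured, of which 2 fell and 0 rose. With the macrophage score, Fas (edgeR adjusted p = 0.135) and Prkcd (edgeR adjusted p = 0.112) did not pass. All calls in these lists are from edgeR over all genes tested, except where FPKM is named. In FPKM 27.1% of all genes tested fell and 20.2% rose.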

How the data were processed

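The authors deposited unnormalized counts per gene and library and, in a second table, FPKM. HISAT2, StringTie and DESeq2, without versions, and the human build GRCh38 are named per the submitters' processing notes, whereas the gene identifiers are mouse. Neither a counting tool nor a strand setting is named in those notes or the labels. The deposited count table held at least 2 counts per gene in every library, and the deposited FPKM table at least 1.00, with 10 repeated identifiers summed. Rows that name no gene were left out: reads outside genes were 17.2% to 22.2% and ambiguous reads 1.78% to 1.94% of counts. Symbols and coordinates came from GENCODE M21 (GRCm38) and matched 99.3% of identifiers.

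Counts were filtered with filterByExpr, which removed 930 genes, scaled by TMM and tested with edgeR 4.0.16 (robust quasi-likelihood test, limma 3.58.1, R 4.3.3), with genotype as the only term. Log2 CPM used a prior count of 2. FPKM was tested with limma on log2(FPKM + 1). The macrophage score is the mean log2 CPM of 15 markers. On simulated data for this comparison (18075 genes), with 50 genes altered at each size, the fit recovered 13 at 1.25-fold, 29 at 1.5-fold, 43 at 2-fold and 49 at 4-fold, and made 6 false calls. The simulation altered no other genes and drew noise independently for each gene, while in the data 22.6% of genes fell and 21.7% rose. Its recovery and false calls need not hold for these data.

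The alternatives were RLE and upper-quartile scaling, DESeq2 1.42.0, limma-voom with quality weights per library and the replicate block. Others were no filter, at least 1 CPM in 5 or more libraries and 1 surrogate variable (sva 3.50.0). Log2 FPKM was run with a pseudocount of 1 or 0.1 or a mean of at least 2. The rest left out single libraries or the pairs named in the text, or added the macrophage score. The FPKM fits without WT replicates 1 and 5 and with the macrophage score were added after seeing the data. The members and lists were chosen with earlier results of these data known. Named genes are the members, from each list up to 3 changed genes by smallest adjusted p, and the 3 genes most like Fscn1 and most like the members' mean. The choice among these for printing was made with their values known.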

Additional observations from a re-analysis of the deposited data

Results flagged for a closer look

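In 142 groups of 5 libraries, 13 held a library far from the others by Dixon's criterion, where chance gives about 1 in 20. Deficient replicate 4 was high for Fscn1 (241.4 CPM, next 195.4, and 88.0 FPKM, next 70.7), for Ccr7 (218.3 CPM, next 184.2) and for 5930403N24Rik (9.71 CPM, next 8.04). WT replicate 3 was low for 5930403N24Rik (9.56 CPM, next 10.4). WT replicate 1 was high for Tmem123 (261.7 FPKM, next 229.3) and Cd200r1 (30.3 CPM, next 21.1). WT replicate 5 was high for Cd200 (19.0 CPM, next 15.2) and Il7r (27.9 CPM, next 22.6), and low for Pls3 (5.18 CPM, next 6.89). WT replicate 2 was low for Insm1 (16.5 CPM, next 20.5), WT replicate 4 was low for Cacnb4 (2.82 CPM, next 4.14), and deficient replicate 1 was high for Socs5 (23.3 CPM, next 21.6).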

How the results depend on the processing

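Leaving out each library in turn left 8 members lower in every fit, with Fscn1 between -0.84 and -0.72 (log2), Tmem123 and the other called members keeping their calls, and genes called over the whole table between 3606 and 4190 lower and 3542 and 4123 higher. The members called lower numbered 4 with the macrophage score, and 6 with it in FPKM. That score took Marcks to -0.17, Cd200 to -0.17, Cacnb3 to -0.28 and Anxa3 to -0.44, and in FPKM Marcks to -0.24, Cacnb3 to -0.31 and Anxa3 to -0.46, none of which passed an adjusted p of 0.05, while Cd200 passed in FPKM with that score (-0.34). Without deficient replicates 1 and 2, Cd200 was -0.35 and Anxa3 -0.80, neither passing. Il4i1 passed only in FPKM: -0.92 with a pseudocount of 1, -0.93 with 0.1, -0.92 with a mean of at least 2, -0.87 without WT replicates 1 and 5, and -0.97 with the macrophage score. Socs2 changed sign without passing: 0.0072 with limma-voom with quality weights and 0.021 without WT replicates 1 and 5. It was 0.016 without deficient replicates 1 and 2, 0.061 with the macrophage score, and -0.070 to 0.042 when single libraries were left out. 5930403N24Rik was 4.94e-04 in FPKM with a pseudocount of 1, with and without the floor on the mean. Genes called higher numbered 2419, 2400 and 2384 in the FPKM fits (pseudocount 1, 0.1, and floor), 2319 without WT replicates 1 and 5 and 1933 with the macrophage score, where fewer genes were tested. Upper-quartile scaling gave 4776 lower and 3413 higher, against 4131 and 3955. With the replicate block, 8 members were lower (20.4% of all genes tested), that is 3714 genes lower and 3756 higher. Same-numbered libraries' deviations correlated by -0.096 to 0.11, so the numbers were not taken to pair libraries. The causes of these shifts were not tested. Without WT replicate 1, Il4i1 was -0.10 by counts (range over single libraries left out -0.64 to -0.10). Counts of 10 to 38 limit Il4i1 in the count table.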
